A study of Mus musculus with 8 samples.

Results

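Integrins are paired receptors, each made of an alpha and a beta subunit, and selectin ligands are sugar-bearing proteins that bind selectins as leukocytes roll. Here the messages of 10 genes of leukocyte adhesion were followed across the blood and grafts of transplanted mice. They were the integrin alpha subunits Itgal, Itgam, Itgax and Itga4, the beta subunits Itgb1, Itgb2 and Itgb7, the endothelial and stromal ligands Icam1 and Vcam1, and the selectin ligand Selplg. The genes were taken by name from the count tables, which together listed 24405 genes, and 10 of the 10 had a row in 7 of the 8 tables. The table of liver PBMC listed 9, since it had no row for Vcam1, and that gene was taken as 0 there, which each Vcam1 ratio over liver blood rests on.

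Hearts, livers and kidneys of BALB/c mice were grafted into C57BL/6J recipients, all mice being 8 weeks old, and cells were taken 7 days later. The labels give male BALB/c for every sample, and per the study's methods no immunosuppressive drug was used in any group. The 8 libraries, 1 per condition, were blood cells (PBMC) of recipients of each of the 3 organs, graft leukocytes (TIL) of the 3 organs, taken from the collagenase digest over a density gradient, and cells of the solid organ (PC) of liver and kidney. Per the methods, the single-cell samples came from more than 1 recipient of each organ, and whether recipients were pooled in a library is not stated. Donor and recipient cells were not separated, and no sample has a replicate.

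In a leukocyte that leaves the blood, PSGL-1, the product of Selplg, binds selectins for rolling. Integrins then hold the cell: LFA-1, of Itgal and Itgb2, binds ICAM-1. Mac-1 (Itgam with Itgb2) and the integrin of Itgax with Itgb2 serve mainly myeloid cells and also bind ICAM-1 and complement fragments. VLA-4, of Itga4 and Itgb1, binds VCAM-1, and Itga4 with Itgb7 binds the mucosal addressin. Inflammatory signals are known to raise ICAM-1 and VCAM-1 on endothelium.

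With 1 library per condition no condition was tested against another. Levels are given as CPM, the unique molecular identifiers (UMIs) of a gene divided by all UMIs of the summed cells and multiplied by 10 to the power of 6, with exact 95% Poisson intervals in parentheses. Tissue over blood ratios are log2 values with a pseudocount of 1 CPM and exact binomial intervals. All intervals cover counting error, not the spread between mice. A ratio was read where each library held at least 20 cells of the class, and a gene was tested where the higher sum held at least 10 UMIs. It was called at 2-fold or more with an interval apart from 0. Counts were taken at the 3′ end of each message, so levels are compared between cells and not between genes.

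The libraries held from 3418722 to 19171264 UMIs, and 47542 of 80000 barcodes reached 500 UMIs. In the library labelled heart TIL the hepatocyte gene Alb had 1031 UMIs, and in that labelled liver TIL it had 0 while the muscle genes Myl7 and Acta1 had 123 and 199. Both libraries thus went against their labels and are called labelled heart TIL and labelled liver TIL throughout, with ratios also given for exchanged labels. Pairs of libraries shared from 1 to 600 barcodes of passing cells. Cells took a class when its markers held at least 2 UMIs and every other class at most the class's own UMIs divided by 3. Neutrophils had the same limit on other classes, but needed 1 UMI of Csf3r in place of the 2 marker UMIs. This left 20252 cells in 9 classes. Few blood lymphocytes passed the gate, and neutrophil RNA was found in those that did: S100a8, a neutrophil gene, stood at 82855 CPM in liver PBMC neutrophils and still at 12880.1 CPM in gated CD8 T cells there. The liver PC library, though labelled as solid organ, held 3797 gated T cells and 36 hepatocytes. Heart PBMC held only 7 gated CD8 T cells and gave a ratio for neutrophils alone. Where the gate left too few cells, values of Leiden clusters, made without the 10 genes and named from the same markers, are given and named as such.

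The 10 genes lie on 8 chromosomes of GRCm38. Itgal (chr7:127296260-127335138), Itgam (chr7:128062640-128118491) and Itgax (chr7:128129547-128150657), which all encode partners of the Itgb2 product, lie on the plus strand of chromosome 7. Itga4 (chr2:79255426-79333123), Itgb1 (chr8:128685654-128733200), Itgb2 (chr10:77530252-77565708) and Icam1 (chr9:21015985-21028817) also lie on plus strands. Itgb7 (chr15:102215995-102231944), Vcam1 (chr3:116109949-116129688) and Selplg (chr5:113818536-113832644) lie on minus strands. RefSeq promoter windows of GRCm38.p6 matched 6 of the 10 genes. The 250 bases before the start are shown for 3 that the results turn on: Icam1, called higher in graft monocytes and neutrophils of liver, Itga4, called lower in graft CD8 T cells of kidney and labelled liver TIL, and Itgam, high in gated neutrophils and monocytes. Capitals mark matches, on either strand, to the NF-kappaB-like letters GGNNNTTCC or the PU.1-like letters GAGGAAG, which do not overlap here.
Icam1, chr9:21015690-21015939, plus strand: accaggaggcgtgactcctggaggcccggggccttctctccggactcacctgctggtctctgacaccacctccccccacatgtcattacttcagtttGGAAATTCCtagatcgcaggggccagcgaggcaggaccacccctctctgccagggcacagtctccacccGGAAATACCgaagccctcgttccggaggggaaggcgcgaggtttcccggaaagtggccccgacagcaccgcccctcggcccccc
Itga4, chr2:79255176-79255425, plus strand: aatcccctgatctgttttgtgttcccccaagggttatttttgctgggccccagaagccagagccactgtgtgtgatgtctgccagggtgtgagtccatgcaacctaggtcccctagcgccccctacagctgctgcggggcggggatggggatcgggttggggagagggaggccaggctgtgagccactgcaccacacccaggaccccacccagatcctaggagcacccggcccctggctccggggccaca
Itgam, chr7:128062390-128062639, plus strand: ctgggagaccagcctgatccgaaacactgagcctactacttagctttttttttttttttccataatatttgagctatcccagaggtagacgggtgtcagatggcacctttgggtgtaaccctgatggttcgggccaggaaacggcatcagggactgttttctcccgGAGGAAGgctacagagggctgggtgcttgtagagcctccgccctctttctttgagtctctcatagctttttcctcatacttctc
The Icam1 window held 2 matches to GGNNNTTCC, 153 and 84 bases before the start. The Itgam window held 1 match to GAGGAAG, 84 bases before the start, and the Itga4 window held neither. Of the 3 matched windows not shown, that of Itgb1, called lower in kidney PC CD8 T cells, held 1 match to GGNNNTTCC, 164 bases before the start. Of all 32851 windows of this length, 15.7% held the first motif and 10.6% the second.

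**Figure D1:**
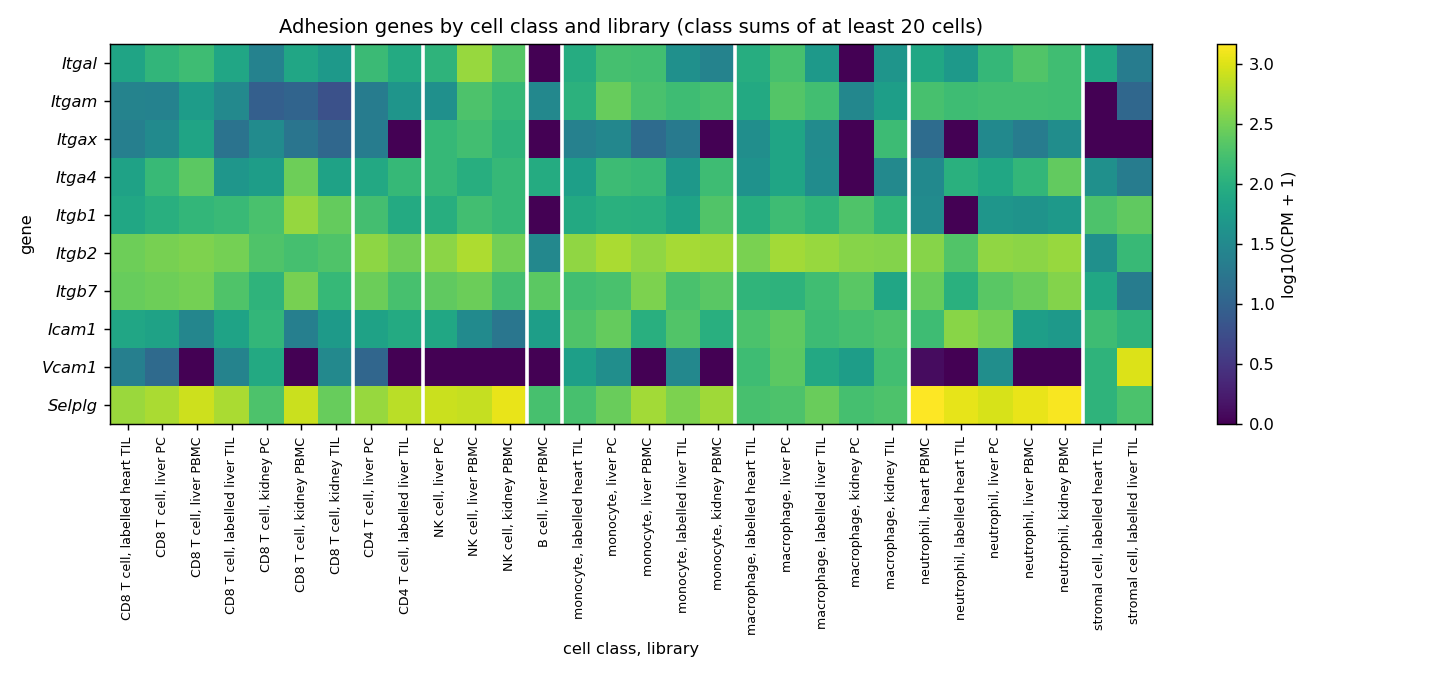
Level of each gene (rows, log10 of CPM + 1) in each cell class and library with at least 20 gated cells (columns). Selplg was at its highest in neutrophils, with 945 to 1471 CPM, while Vcam1 was at its highest in stromal cells of labelled liver TIL, with 998 CPM, and was near 0 in blood.

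Of the alpha subunits that pair with Itgb2, Itgam was lower in gated CD8 T cells than in gated neutrophils and monocytes. It lay between 152 and 174 CPM in the 5 neutrophil sums, between 108 and 269 CPM in the 5 monocyte sums, and between 5.16 and 55.5 CPM in the 7 CD8 T cell sums. No CD8 T cell sum reached any neutrophil or monocyte sum. NK sums ranged over both groups, at 192 CPM (70.3–417) in liver PBMC, 132 CPM (57–260.1) in kidney PBMC and 37.9 CPM (4.59–137) in liver PC, and the 3 intervals overlapped. Macrophage sums did so too, from 28.1 CPM in kidney PC to 208 CPM in liver PC. By clusters CD8 T cells reached 74.8 CPM in liver PBMC and monocytes fell to 26.8 CPM in kidney PC, so these ranges overlapped. The kidney PC clusters named monocytes may hold macrophages, as given below. Neutrophil clusters, at 117 to 211 CPM, stayed above the CD8 T cells. After thinning to 500 UMIs a cell, 1.24% (0.885 to 1.68) of liver PC CD8 T cells had a UMI of Itgam, against 12.4% (9.57 to 15.8) of monocytes in the same library (unthinned 4.73% and 34.9%).

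Itgax, the CD11c subunit best known from dendritic cells, was sparse. It was 159.6, 133 and 116 CPM in NK cells of liver PBMC, liver PC and kidney PBMC, from 5, 7 and 7 UMIs. In monocytes it lay between 0 and 28.2 CPM, below each NK sum, but by clusters the ranges overlapped, with 72.4 CPM in monocytes of kidney TIL and 36.6 CPM in NK cells of labelled liver TIL. The kidney TIL cluster named monocytes may hold macrophages, as given below. Among gated macrophages Itgax was highest in kidney TIL, at 148 CPM (70.9–272), and no UMI was found in kidney PC, where 3 UMIs would have been 84.3 CPM.

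Itgal, the CD11a subunit of LFA-1, was highest in NK cells of liver PBMC, at 479 CPM (268–789.8), above the 114 CPM (41.7–247) of liver PC. The log2 ratio of PC over PBMC was -2.07 (-3.73 to -0.63), and Itgal was the 1 gene of the 4 tested that was called lower there, where 5.34% of all tested genes were called lower, and none was called higher, where 5.89% were. In NK clusters the ratio was -0.97 (-1.64 to -0.30) in PC, short of 2-fold, and -1.29 (-2.31 to -0.37) in labelled liver TIL, which with exchanged labels became 0.27 (-1.04 to 1.66) for labelled liver TIL over heart PBMC and -1.38 (-2.28 to -0.54) for labelled heart TIL over liver PBMC. S100a8 stood at 17782 CPM in the gated NK cells of liver PBMC and 1478 CPM in those of liver PC, and the part of free RNA in this ratio was not tested further than by subtraction, which moved the blood level to 554 CPM.

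In CD8 T cells Itgal was 153 CPM (76.2–273) in liver PBMC, 119 CPM (111–128) in liver PC and 73.9 CPM (57.9–92.9) in labelled liver TIL. It was 73.3 CPM (46.5–110.0), 24.6 CPM (5.07–71.9) and 49 CPM (34.7–67.2) in kidney PBMC, PC and TIL, and 69.3 CPM (58.7–81.3) in labelled heart TIL. None of these tissue over blood ratios was called by the gate. With exchanged labels, labelled heart TIL over liver PBMC gave -1.13 (-2.02 to -0.11), which was past 2-fold. In liver monocytes, by contrast, Itgal was 160.4 CPM (120.5–209) in PBMC, 170.0 CPM (144–199) in PC and 38.3 CPM (10.4–98) in labelled liver TIL, so the low value belonged to the last library alone, with a log2 ratio of -2.04 (-3.99 to -0.63). In the same exchange, the ratio was -0.83 (-1.77 to 0.01) in monocytes, which was not called.

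Itga4, the alpha-4 subunit of VLA-4, was lower in graft than in blood CD8 T cells in kidney and in labelled liver TIL, where its ratio was the lowest of all subunits tested. In kidney it was 293 CPM (236–359.5) in PBMC, 57.4 CPM (23.1–118) in PC and 65.8 CPM (49–86.5) in TIL, from 92, 7 and 51 UMIs. In liver it was 236 CPM (137–378) in PBMC, 136 CPM (127–145) in PC and 44.5 CPM (32.4–59.8) in labelled liver TIL. Labelled heart TIL held 65.7 CPM (55.3–77.4). The intervals of the 3 TIL libraries lay below those of both blood libraries, while that of liver PC overlapped the liver blood interval.

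The log2 ratios of Itga4 in CD8 T cells were -2.14 (-2.68 to -1.65) and -2.33 (-3.71 to -1.25) in kidney TIL and PC, -2.38 (-3.24 to -1.50) in labelled liver TIL and -0.79 (-1.49 to -0.01) in liver PC. The first 3 were called lower and the last was not. With exchanged labels, labelled heart TIL over liver PBMC gave -1.83 (-2.57 to -1.03), also lower. The liver blood level rested on 17 UMIs of 63 cells, and in CD8 T clusters, with 243 blood cells, the ratio of labelled liver TIL was -2.12 (-2.76 to -1.55). By clusters, Itga4 was 108 CPM in 360 CD8 T cells of heart PBMC and 64.6 CPM in those of labelled heart TIL. The ratio was -0.73 (-1.24 to -0.22), short of 2-fold. Exchanged labels gave -1.29 (-1.93 to -0.69) for labelled liver TIL over heart PBMC, past 2-fold lower. Subtracting neutrophil RNA in proportion to S100a8 left the gated blood levels of Itga4 at 257 CPM in liver and 296 CPM in kidney.

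By share of cells, 15.2% (11 to 20.4) of kidney PBMC CD8 T cells had an Itga4 UMI after thinning, against 3.17% (2.16 to 4.47) in TIL and 2.15% (0.589 to 5.41) in PC (unthinned 29.2%, 5.01% and 3.76%). Stromal cells of labelled liver TIL, in another library, had 2.22% (0.27 to 7.8) at the same depth, and no such share was measured in the kidney libraries. The kidney blood interval lay above both graft intervals. In liver the thinned shares were 9.52% (3.58 to 19.6) in PBMC, 7.29% (6.42 to 8.24) in PC and 2.2% (1.35 to 3.38) in labelled liver TIL.

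In the other leukocytes Itga4 moved less alike. In liver monocytes it was 137 CPM in PBMC, 149 CPM in PC and 47.8 CPM in labelled liver TIL, with a called ratio of -1.50 (-3.20 to -0.19) in the last. Exchanged labels gave -1.18 (-2.34 to -0.18). Neutrophils ranged from 31.2 CPM (25.7–37.5) in heart PBMC through 123 CPM (107–139) in liver PBMC to 257 CPM (144–423) in kidney PBMC, and the 3 blood intervals did not overlap. These differences lie between recipients of different organs, 1 library each.

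**Figure D2:**
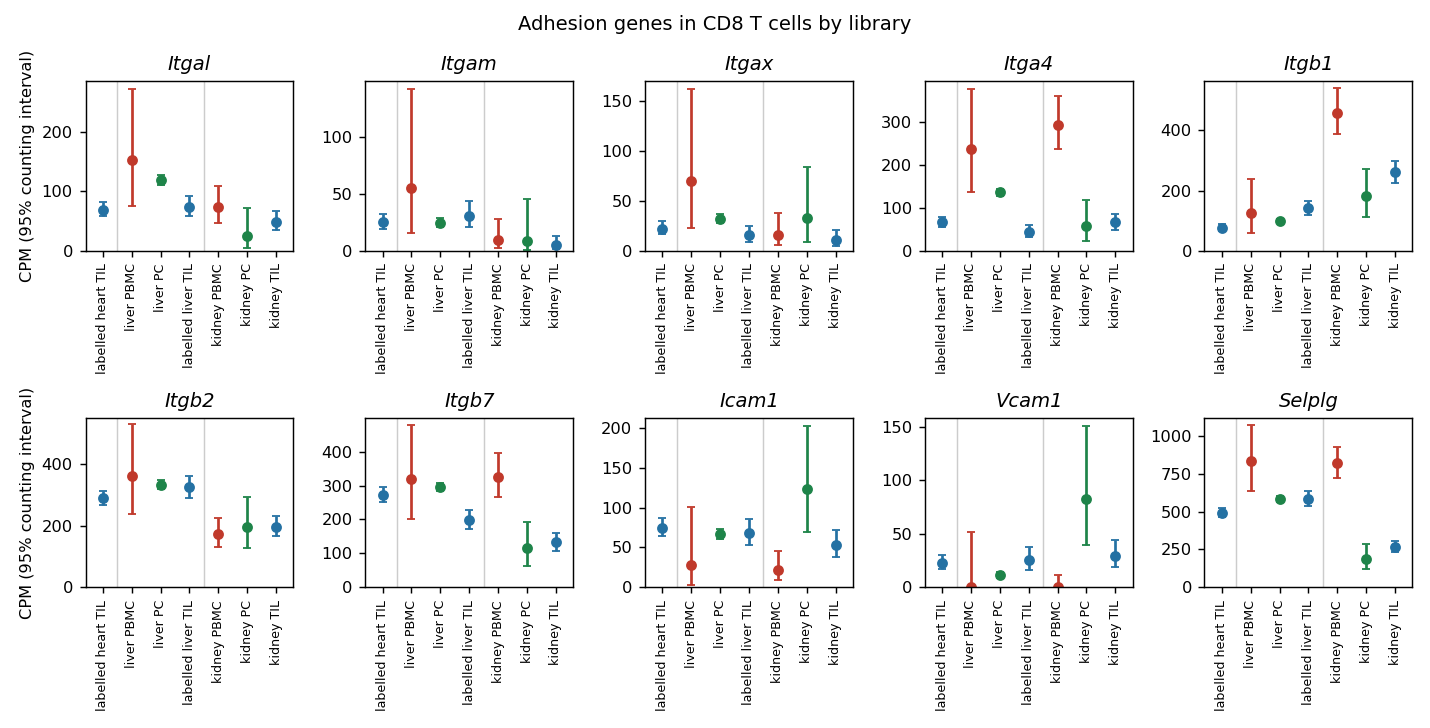
CPM of each gene in gated CD8 T cells of 7 libraries, with exact 95% Poisson intervals as bars; red is blood, green PC and blue TIL. Itga4 was at 236 and 293 CPM in the blood libraries and at 44.5 to 66 CPM in the TIL libraries, and each vertical axis has its own scale starting at 0.

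The beta subunits differed in how evenly they were expressed. Itgb2, the CD18 partner of Itgal, Itgam and Itgax, was the most even: it lay between 172 and 361 CPM in CD8 T cells, 437 and 584 CPM in monocytes and 203 and 479 CPM in neutrophils. It was not called in any of the 9 tissue over blood comparisons. In kidney CD8 T cells its ratio was 0.19 (-0.27 to 0.66) in TIL and 0.19 (-0.56 to 0.91) in PC. Stromal cells held 38.3 and 134 CPM, below every myeloid and T cell sum, and the 51 gated B cells of liver PBMC held 1 UMI. By clusters B cells held 234 CPM in liver PBMC, which subtracting neutrophil RNA left at 41.9 CPM. B cell clusters of liver PC and labelled liver TIL held 236 and 378 CPM.

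Itgb1, the CD29 partner of Itga4 in VLA-4, was highest in kidney PBMC CD8 T cells, at 459 CPM (387–540.2), against 260.4 CPM (226–299) in kidney TIL and 180.4 CPM (113–273) in kidney PC. The ratios were -0.81 (-1.13 to -0.50) and -1.34 (-2.07 to -0.69), and only the PC ratio passed 2-fold. Liver CD8 T cells did not share this: 125 CPM (57.1–237) in PBMC, 97.6 CPM (90.3–105) in PC and 141 CPM (118–166) in labelled liver TIL, with overlapping blood and graft intervals. Among gated neutrophils Itgb1 stayed at or below 51.3 CPM, below each of the gated CD8 T cell sums. By clusters the ranges overlapped, with neutrophils up to 105 CPM in labelled liver TIL and CD8 T cells down to 64.7 CPM in heart PBMC.

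Itgb7, the partner of Itga4 for the mucosal addressin, was found in blood neutrophils at levels close to those of T cells. Neutrophils held 271 CPM (254–288) in heart, 279.8 CPM (257–304) in liver and 377 CPM (236–570.1) in kidney PBMC, and CD8 T cells held 319 CPM (202–479) in liver and 325 CPM (265–395) in kidney PBMC. Kidney graft CD8 T cells had less, 115 CPM (62.8–193) in PC and 133 CPM (108–161) in TIL, with called ratios of -1.49 (-2.42 to -0.69) and -1.28 (-1.70 to -0.88). Liver PC CD8 T cells stood at 295 CPM (283–309), a ratio of -0.11 (-0.70 to 0.55), and those of labelled liver TIL at 197 CPM (171–227), a ratio of -0.69 (-1.32 to -0.00), neither of them called.

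Icam1, the ligand of LFA-1 and Mac-1, ran the other way and was called higher in several graft classes. In liver neutrophils it was 58.7 CPM (48.3–70.5) in PBMC and 319.9 CPM (246–409) in PC, a ratio of 2.43 (1.98 to 2.90), and 1 of 9 tested genes, Icam1, was called higher, against 7.78% of all genes. In heart neutrophils it was 151 CPM (138–164) in PBMC and 406 CPM (175–801) in labelled heart TIL, from 8 UMIs of 25 cells, with a ratio of 1.42 (0.21 to 2.42). By clusters, with 432 graft neutrophils, the ratio was 0.86 (0.54 to 1.17), short of 2-fold. By the gate Icam1 was the 1 of 9 called higher, where 3.41% of all genes were. With exchanged labels the same graft cells over liver PBMC gave 2.77 (1.55 to 3.82).

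The tissue neutrophil sums also carried more RNA of other cells. The macrophage markers summed to 1711 CPM in liver PC neutrophils, with 9 of 9 detected, against 70.1 CPM in liver PBMC, with 6 of 9. In labelled heart TIL they summed to 2083 CPM and in heart PBMC to 38.4 CPM. Macrophages of the same libraries held 242 and 187 CPM of Icam1, and the latter value lay within the interval of the labelled heart TIL neutrophils. The part of macrophage RNA in these ratios was not tested. Among blood libraries, Icam1 in neutrophils was 151 CPM in heart, 58.7 CPM in liver and 51.3 CPM in kidney PBMC, and the heart interval lay above the liver one.

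Monocytes showed the same direction in liver. Icam1 was 98 CPM (67.5–138) in PBMC, 265 CPM (232–301) in PC and 201 CPM (124–307) in labelled liver TIL, with ratios of 1.42 (0.90 to 2.01) and 1.03 (0.17 to 1.87), both called. Among tested genes 2 of 10, Icam1 and Vcam1, were called higher in PC (8.66% of all genes), and 1 of 8, Icam1, in labelled liver TIL (6.06%). Labelled heart TIL monocytes had 198 CPM (136–278), a ratio of 1.01 (0.27 to 1.75) over liver PBMC. When no UMI of another class was allowed in a cell, the PC ratio turned to -0.77. With a pseudocount of 10 CPM the ratio of labelled liver TIL was 0.97, short of 2-fold. By clusters it was 0.89 (0.57 to 1.22), not called, and that in PC was 1.31 (1.04 to 1.60). Macrophage markers summed to 208 CPM in the gated monocytes of liver PBMC (5 of 9 detected), 723 CPM in PC (9 of 9) and 889.6 CPM in labelled liver TIL (5 of 9), and their part in the ratios was not tested.

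In kidney CD8 T cells Icam1 was 22.3 CPM (8.97–46) in PBMC, 52.9 CPM (37.9–71.7) in TIL and 123 CPM (68.8–203) in PC, with ratios of 1.21 (0.07 to 2.65) and 2.41 (1.08 to 4.0), the first being 0.96 with a pseudocount of 10 CPM. The called genes were Icam1 and Vcam1, 2 of 8 tested, against 8.73% of all genes in TIL and 9.54% in PC. Macrophage markers summed to 445 CPM in these TIL cells (5 of 9 detected), 1000.3 CPM in PC (4 of 9) and 0 in PBMC, and Lyz2 stood at 2233, 7683 and 685 CPM. Their part in the ratio was not tested. In liver CD8 T cells Icam1 was 27.8 CPM in PBMC from 2 UMIs, 66.4 CPM in PC and 67.8 CPM in labelled liver TIL, and neither ratio was called.

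By clusters, which gave more graft NK and B cells, Icam1 was called higher in liver NK cells, at 2.27 (0.87 to 4.24) in PC and 2.46 (0.95 to 4.49) in labelled liver TIL, and in liver PC B cells, at 1.83 (0.99 to 2.76). The NK calls were beside Vcam1 in PC, 2 of 10 tested where 8.57% of genes were called, and alone in labelled liver TIL, 1 of 9 where 11.4% were. Among B cells, Icam1 and Itgb1 were the 2 of 8, against 13.7%. Clusters of labelled heart TIL over heart PBMC did not show it: the ratio in CD8 T cells was -0.05 (-0.60 to 0.55) and in NK cells -0.89 (-1.86 to 0.08). With exchanged labels the NK ratio was 1.74 (0.19 to 3.78) for labelled heart TIL over liver PBMC, called higher, and -0.16 (-1.09 to 0.78) for labelled liver TIL over heart PBMC, and heart PBMC NK clusters held 46937 CPM of S100a8, against 30058 CPM in liver PBMC. C1qb, a macrophage gene, stood at 7.44 CPM in NK clusters of liver PBMC, 591 CPM in PC and 2204 CPM in labelled liver TIL, and in B cell clusters at 8.6 CPM in PBMC and 849.9 CPM in PC. Its part in these calls was not tested.

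**Figure D3:**
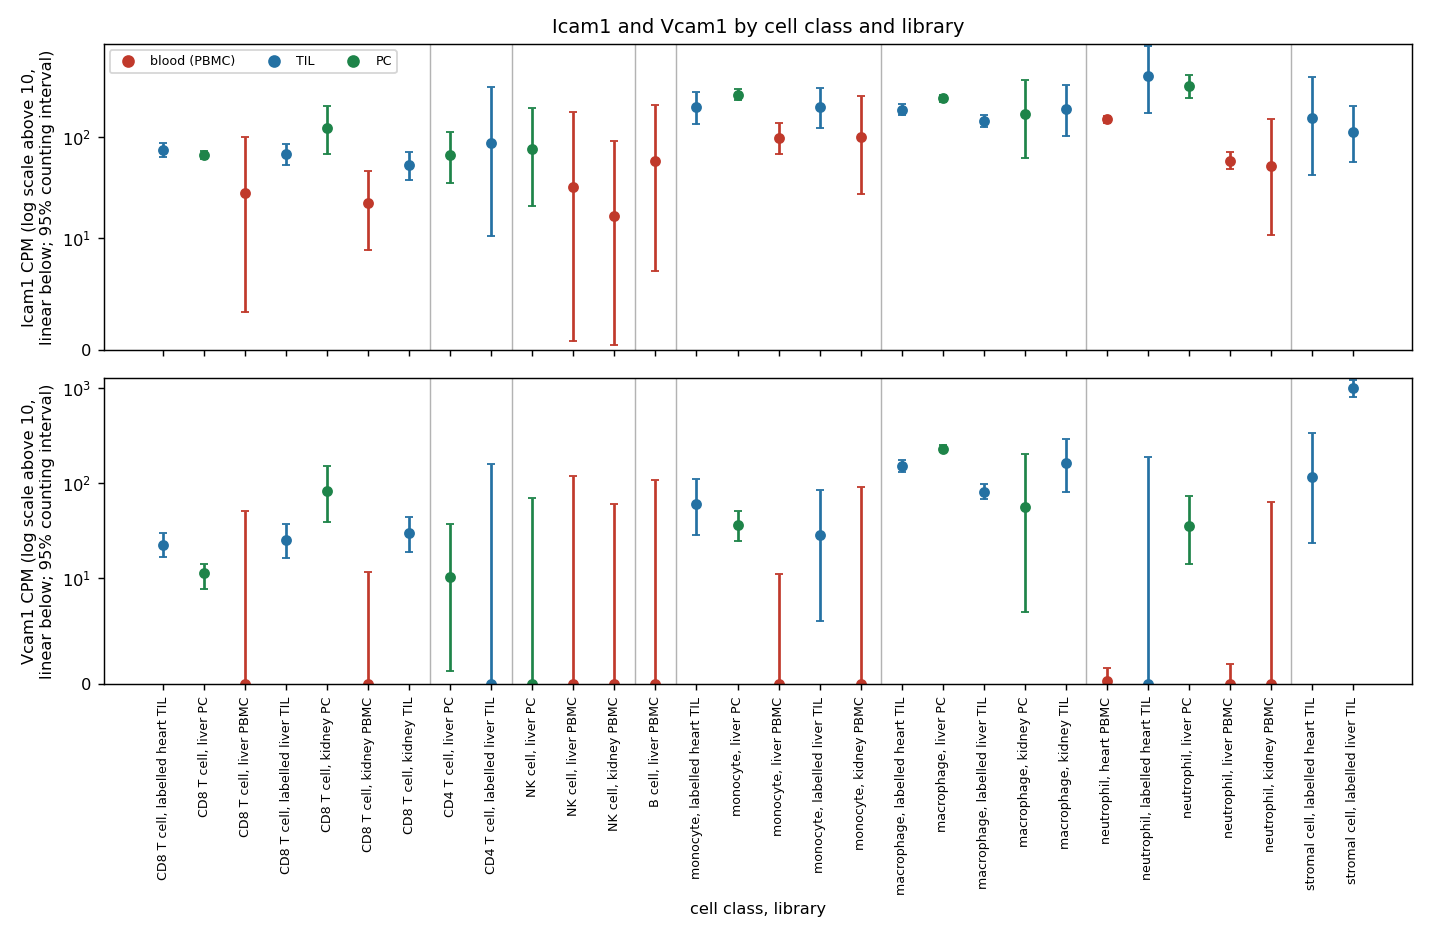
Icam1 (top) and Vcam1 (bottom) in each gated class and library, as CPM with exact 95% Poisson intervals; the axis is logarithmic above 10 CPM and linear below. Blood (red) monocytes and T cells were lower in Icam1 than graft cells, for example 98 against 265 CPM in liver monocytes, and blood sums were at 0 for Vcam1 apart from 1 UMI in heart PBMC neutrophils.

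Vcam1, the ligand of VLA-4, belonged to the graft. Over all passing cells it had 1 UMI in heart PBMC, 0 in liver and kidney PBMC, and 596, 513, 1131, 53 and 118 UMIs in labelled heart TIL, labelled liver TIL, liver PC, kidney PC and kidney TIL. Stromal cells of labelled liver TIL held 998 CPM (809–1217), and 26.7% (17.9 to 37) of them had a UMI after thinning. Those of labelled heart TIL held 115 CPM (23.7–336) from 3 UMIs of 24 cells. These intervals did not overlap. Stromal clusters held 750 CPM in labelled liver TIL, 221 CPM in labelled heart TIL and 80.7 CPM in liver PC, where the gate left 18 stromal cells. The liver PC cluster also held 671 CPM of the T cell gene Cd8a, and the part of T cell RNA was not tested.

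The gate left only 13, 8 and 8 endothelial cells in labelled heart TIL, liver PC and labelled liver TIL, with 5, 8 and 13 Vcam1 UMIs, or 430.1 CPM (139.7–1004), 732 CPM (316–1442) and 1339 CPM (713–2289). Endothelial clusters of 97, 22 and 65 cells held 361, 542 and 547 CPM. Icam1 in the same clusters was 263, 371 and 354 CPM. Blood held too few endothelial or stromal cells for a ratio.

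Macrophages also held Vcam1, at 231 CPM (212–251) in liver PC, 152 CPM (132–175) in labelled heart TIL, 163 CPM (81.2–291) in kidney TIL, 81.7 CPM (67.9–97.5) in labelled liver TIL and 56.2 CPM (6.81–203) in kidney PC. Labelled liver TIL lay below liver PC, with a log2 ratio of -1.49 (-1.79 to -1.22). CD8 T cells of the grafts held 11.4 to 82 CPM, and the thinned share with a UMI was 0.556% (0.33 to 0.878) in liver PC against 8.7% (6.93 to 10.8) in macrophages there. In kidney the thinned shares were 1.74% of CD8 T cells and 4.85% of macrophages in TIL, and 3.76% and 3.45% in PC. The calls for Vcam1 in kidney CD8 T cells, at least 3.1-fold higher in TIL and 8.58-fold in PC, with blood set at 3 UMIs, stood beside these shares, and the part of RNA from other cells in them was not tested. Vcam1 was also among the leading genes of a proximal tubule cluster of 73 cells in kidney PC. For monocytes of liver PC, at 36 CPM, the bound was 4.04-fold.

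Selplg, whose product PSGL-1 binds the selectins, was highest in neutrophils. Blood neutrophils held 1471 CPM (1432–1511), 1149 CPM (1102–1198) and 1369 CPM (1086–1704) in heart, liver and kidney recipients, and graft neutrophils held 945 CPM (814–1091) in liver PC and 1118 CPM (700.4–1692) in labelled heart TIL. The ratios of -0.28 (-0.51 to -0.07) and -0.40 (-1.07 to 0.20) stayed within 2-fold. NK cells held 766 to 1139 CPM, a range that took in the blood CD8 T cells of liver and kidney, and macrophages were low, at 169 to 278 CPM.

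In kidney CD8 T cells Selplg was 822 CPM (725–929) in PBMC, 267 CPM (232–306) in TIL and 189 CPM (119.5–283) in PC, with called ratios of -1.62 (-1.89 to -1.35) and -2.12 (-2.81 to -1.51). Liver differed in size: 833 CPM (635–1072) in PBMC, 584 CPM (566–602) in PC and 584 CPM (537–634) in labelled liver TIL, with ratios of -0.51 (-0.88 to -0.12) and -0.51 (-0.90 to -0.10), short of 2-fold. The kidney TIL interval lay below that of labelled liver TIL. In labelled heart TIL over heart PBMC, by clusters, the ratio was -1.30 (-1.46 to -1.15), called lower. S100a8 in these blood CD8 T cells stood at 36.6% of its level in heart PBMC neutrophils. Subtracting that part left 973 CPM of 1241, less than 2-fold above the graft's 503 CPM. With exchanged labels, labelled heart TIL over liver PBMC gave -0.83 (-1.04 to -0.62), also short of 2-fold. Labelled liver TIL over heart PBMC gave -1.16 (-1.33 to -0.99), past 2-fold before any subtraction. By share, 35.8% (29.8 to 42.2) of kidney PBMC, 12.9% (10.8 to 15.1) of kidney TIL and 10.2% (6.26 to 15.5) of kidney PC CD8 T cells had a UMI after thinning.

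Set against all genes, the lower calls in kidney CD8 T cells were 3 of 8 tested in TIL (Itga4, Itgb7 and Selplg), where 7.99% of genes were called lower, and 4 of 8 in PC (the same 3 and Itgb1), where 8.86% were. In labelled liver TIL CD8 T cells 2 of 10, Itgax and Itga4, were lower, against 3.15%, and none was higher, against 3.03%. The Itgax level in liver PBMC rested on 5 UMIs, and with exchanged labels its ratio was -1.61 (-2.98 to 0.03), not called. In liver PC CD8 T cells none of the 10 was called in either direction, where 1.28% of genes were higher and 2.57% lower. Monocytes of labelled liver TIL had 2 of 8 lower, Itgal and Itga4, against 6.67%, while with exchanged labels labelled heart TIL over liver PBMC was past 2-fold lower for Itga4, for Itgb7, at -1.10 (-1.76 to -0.49), and for Selplg, at -1.60 (-2.22 to -1.03). Monocytes of liver PC had none of 10, against 4.35%. Neutrophils had no gene called lower in liver PC (3.75%) or labelled heart TIL (0.513%). The kidney comparisons share their blood library, as do the liver ones.

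**Figure D4:**
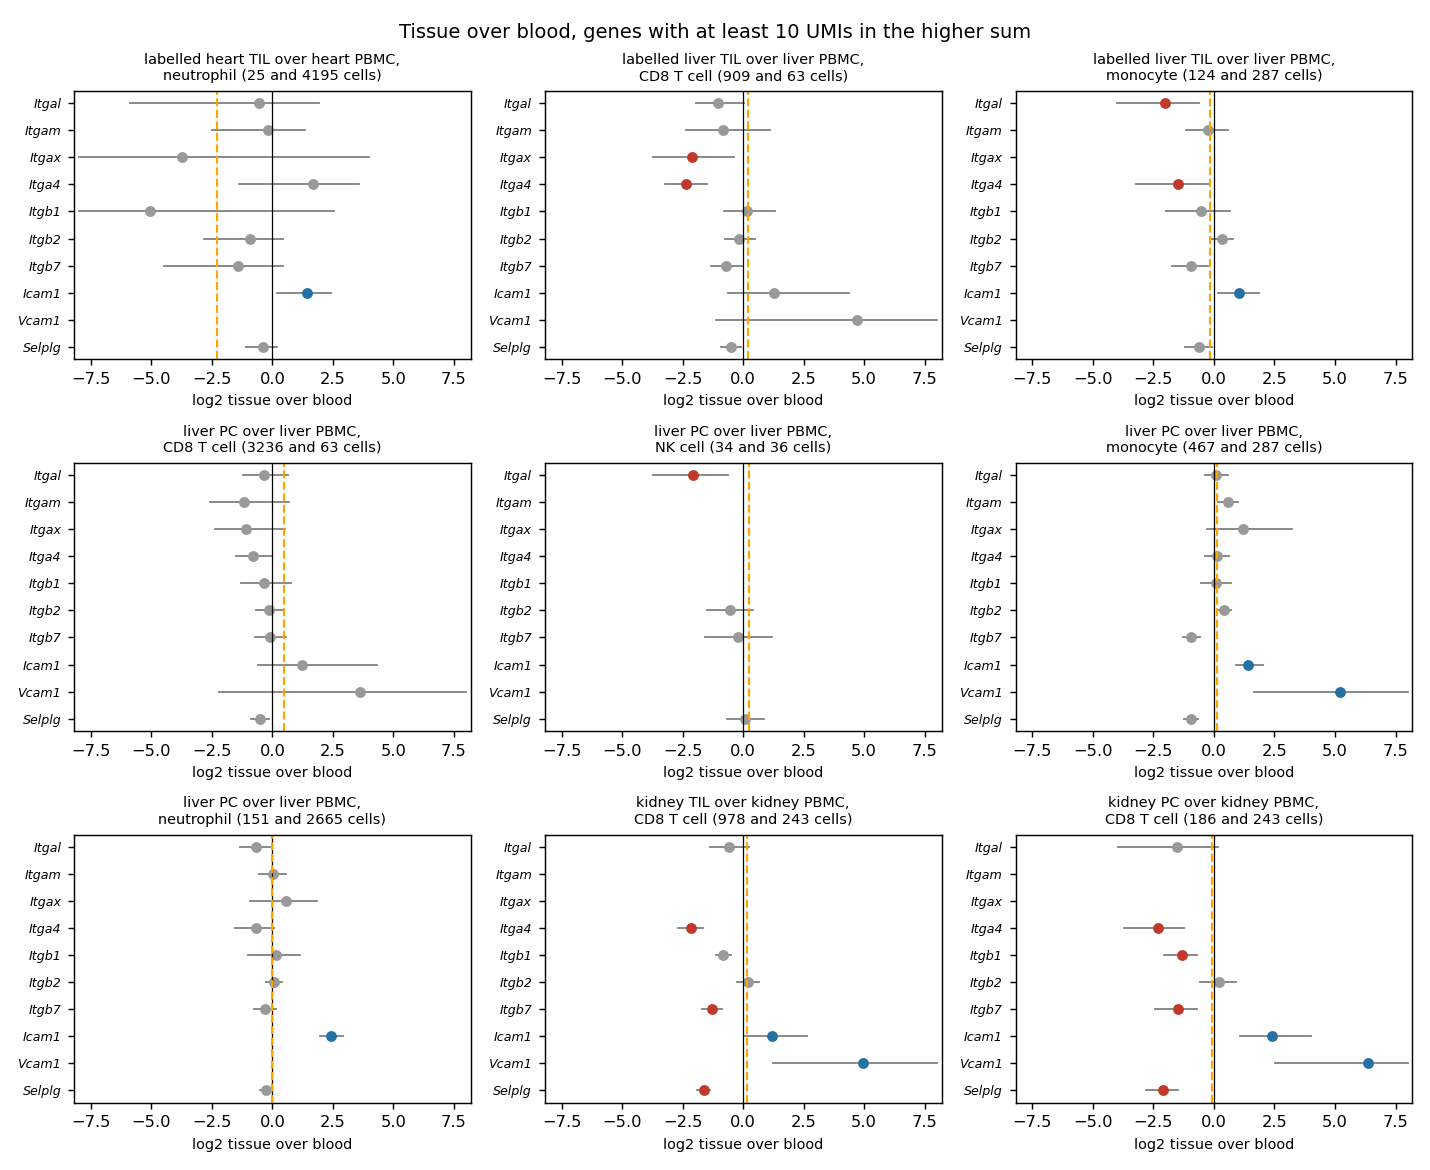
Log2 ratio of tissue over blood for each tested gene in the 9 comparisons, with exact binomial intervals drawn up to 8 on either side; blue points were called higher, red points lower and grey points neither, and the dashed line is the median of all tested genes. Icam1 lies right of 0 in all 8 comparisons where it was tested, and Itga4 is red in both kidney panels and both labelled liver TIL panels.

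The clusters held more blood CD8 T cells and graft neutrophils than the gate, with more S100a8 in the former, 22526 CPM against 12880.1 in liver PBMC. In each comparison that both allowed, clusters called a larger share of all genes, apart from the lower calls in liver PC NK cells. Vcam1, called higher in 9 of the cluster comparisons, was at 0 in each blood sum. For CD8 T cells, Itgam and Selplg, 2 of 10, were lower in labelled heart TIL than in heart PBMC, with Itgam at -1.85 (-2.66 to -1.15) (6.45% of all genes lower), and Vcam1 alone was higher (10.1%). With exchanged labels, labelled heart TIL over liver PBMC was past 2-fold lower for Itgam, for Itgal, at -1.22 (-1.72 to -0.70), and for Itga4, at -1.56 (-2.06 to -1.07). In labelled liver TIL the 4 alpha subunits were lower, Itgal at -1.20 (-1.76 to -0.64), Itgam at -1.74 (-2.71 to -0.83) and Itgax at -1.64 (-2.88 to -0.49) beside Itga4 (5.44%), and Vcam1 was higher (8.57%). With exchanged labels, labelled liver TIL over heart PBMC lost the Itgal call, at -0.27 (-0.85 to 0.33), kept the other 3 alpha subunits past 2-fold lower and added Itgb7, at -1.47 (-1.75 to -1.19), and Selplg, at -1.16 (-1.33 to -0.99), while Itgb1 was higher, at 1.04 (0.45 to 1.70). In liver PC only Itgam was lower, at -1.54 (-2.26 to -0.81) (5.04%), and none was higher (4.65%). Subtracting neutrophil RNA, with results below 0 set at 0, moved Itgam in blood CD8 T cells from 67.1 to 0 CPM in heart and from 74.8 to 36.3 CPM in liver.

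NK clusters of labelled liver TIL had 4 of 9 lower, with Itgax at -1.67 (-3.50 to -0.19), Itga4 at -1.80 (-3.89 to -0.16) and Selplg at -1.02 (-1.49 to -0.57) beside Itgal (9.02%). In these clusters Ncr1, a defining NK receptor, went from 692 CPM in PBMC to 146 CPM, and Cd3e went from 0 to 87.9 CPM beside the C1qb given above. Subtracting neutrophil RNA left Selplg in the blood NK clusters at 642 CPM, less than 2-fold above the graft's 447 CPM. NK clusters of liver PC had Itgam lower, at -1.16 (-2.11 to -0.21) (5.32%), where the same subtraction left 112 CPM in blood against 62.9 CPM in PC, and those of labelled heart TIL had none of 9 called lower (6.66%) or higher (11.9%), though Itgal was past 2-fold lower there with exchanged labels, as given above. With exchanged labels, labelled liver TIL over heart PBMC kept Selplg lower in NK clusters, at -1.20 (-1.68 to -0.74), and called neither Itgax, at -1.19 (-3.14 to 0.52), nor Itga4, at 0.61 (-2.17 to 4.10). Among B cell clusters, Selplg was lower in labelled liver TIL, at -1.09 (-2.11 to -0.23) (3.71%), where none was higher (6.28%). The graft held 277 CPM and blood 591 CPM. The neutrophil part by S100a8 was larger than this whole blood level, and the result was set at 0 CPM. Since it took away too much, the subtraction cannot tell whether the call stands. Liver PC had none lower (9.28%). Itgb1 in B cells was 12.9 CPM in liver PBMC and 111 CPM in liver PC, while CD8 T cells of the same PC library held 99.2 CPM, and Cd3e in the PC B cells stood at 87.8 CPM against 8.6 CPM in blood. The part of T cell RNA in the Itgb1 call was not tested.

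Monocyte clusters gave ratios for liver and kidney, while in labelled heart TIL a cluster of 999 cells with monocyte markers was led by the neutrophil granule genes Ngp, Camp and Ltf and stayed unnamed. Clusters named monocytes held 183 cells in kidney PC and 364 in kidney TIL. There the gate found 3 and 18 monocytes beside 58 and 103 macrophages. These kidney graft clusters may thus hold macrophages, and how many was not tested. Selplg was lower in liver PC, kidney TIL and kidney PC, at -1.10 (-1.26 to -0.94), -1.14 (-1.74 to -0.54) and -1.20 (-2.00 to -0.45). S100a8 stood at 22355 and 11265 CPM in the blood monocyte clusters of liver and kidney. In these graft clusters it stood at 9814, 141 and 71.5 CPM. Neutrophil clusters of the same blood held 102128 and 82158 CPM of S100a8 and 1544 and 1194 CPM of Selplg. Neutrophil RNA was not subtracted from monocytes, and its part in these calls was not tested. Itga4 was lower in labelled liver TIL, kidney TIL and kidney PC, at -1.64 (-2.18 to -1.17), -1.89 (-2.94 to -0.92) and -4.52 (-10.03 to -2.05), the last from 1 UMI in the graft, and Itgb7 in kidney TIL and PC, at -1.57 (-2.45 to -0.72) and -1.55 (-2.77 to -0.48). In all, 2 of 10 were lower in labelled liver TIL (with Itgal, 9.92%), 1 of 10 in liver PC (5.7%), 3 of 9 in kidney TIL (10.1%) and 4 of 7 in kidney PC (with Itgam, 17.3%). With exchanged labels neither of these labelled liver TIL calls was kept, Itga4 standing at -0.04 (-0.86 to 0.82) and Itgal at 0.05 (-0.59 to 0.72) over heart PBMC. Past 2-fold higher in this exchange were Itgb1, at 1.64 (0.86 to 2.59), and Itgax, at 3.07 (0.94 to 8.91) over 2.23 CPM in blood. Vcam1 was at 0 in this blood too.

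Higher in monocyte clusters were Itgax and Vcam1 in labelled liver TIL (2 of 10, 9.92%) and in kidney TIL (2 of 9, 12.9%), Icam1 and Vcam1 in liver PC (2 of 10, 11%) and none of 7 in kidney PC (19.1%). Itgax was 26.1 and 72.4 CPM in labelled liver TIL and kidney TIL and 11.1 and 9.44 CPM in the blood of these organs, from 17 and 1 UMIs in blood. C1qb, a macrophage gene, moved with these calls and with the lower calls given above. It was at 2554, 930.1, 2547 and 2849.9 CPM in the clusters of labelled liver TIL, liver PC, kidney TIL and kidney PC. In liver and kidney PBMC it was at 103 and 75.5 CPM. The macrophage cluster of kidney PC held 1616 CPM of C1qb, less than the monocyte clusters there. The part of macrophages, or of their RNA, in the higher and lower calls was not tested.

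Graft neutrophil clusters held less RNA of Csf3r, a defining neutrophil receptor, than blood ones, at 529 CPM in liver PC against 2125 CPM in liver PBMC, and 32.8% of all genes were called higher there, 27.5% in labelled liver TIL and 29.1% in labelled heart TIL. Itgb1 and Vcam1 were higher in each, and Icam1 in liver PC and labelled liver TIL, 3, 3 and 2 of 10 in that order. Lower were Selplg in each, at -1.06 (-1.19 to -0.94), -1.63 (-1.83 to -1.45) and -1.78 (-2.00 to -1.57), with Itgal and Itga4 also lower in labelled liver TIL (8.84%, 12.7% and 7.45% of all genes). The gated neutrophils kept Selplg within 2-fold. Their Csf3r level, 1275 CPM in liver PC and 2440.0 CPM in liver PBMC, was set in part by the gate, which needed a Csf3r UMI in each cell. With exchanged labels the Itga4 ratio in neutrophil clusters of labelled liver TIL over heart PBMC was 1.09 (0.46 to 1.74), the opposite direction. The same exchange ended the calls of Itgal, at 0.14 (-0.37 to 0.62), and Icam1, at 0.08 (-0.26 to 0.42). Labelled heart TIL over liver PBMC gave 2.74 (2.26 to 3.30) for Icam1, past 2-fold higher. It gave -1.72 (-2.65 to -0.95) for Itga4 and -1.11 (-1.67 to -0.61) for Itgal, both past 2-fold lower.

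Among a list of other adhesion genes, Rasgrp2, which activates Rap1 ahead of integrin activation, was lower in CD8 T cells of 3 of the 4 graft libraries with a gated ratio, with ratios of -1.92 (-2.33 to -1.53), -2.14 (-3.14 to -1.30) and -2.24 (-3.00 to -1.47) in kidney TIL, kidney PC and labelled liver TIL. In liver PC the ratio was -0.95 (-1.58 to -0.26), not called. It was 437 CPM in kidney PBMC and 115 CPM in kidney TIL, and 291 CPM in liver PBMC and 60.7 CPM in labelled liver TIL. Being called the same way in kidney TIL and labelled liver TIL is what chose this gene, and no ratio with exchanged labels is given for it.

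By sublist, in kidney CD8 T cells 2 of 10 integrin activators were lower in TIL, where 7.99% of all genes were, and in PC 2 of 9 were lower (8.86%) and 1, Fyb, higher (9.54%), with medians of -0.56 and -0.52 against 0.15 and -0.07 over all genes. None of the selectin ligand enzymes, 5 tested in TIL and 3 in PC, was called there, with medians of -0.39 and -0.92. None of the 11 other integrins had enough UMIs to be tested in kidney CD8 T cells, and the 1 of 9 other ligands and junction molecules that had was not called. In labelled liver TIL CD8 T cells 1 of 6 selectin ligand enzymes (St3gal4) and 1 of 10 activators were lower, where 3.15% of all genes were, with medians of 0.29 and -0.04 against 0.19, and none of the 3 other integrins and 4 ligands tested was called. In liver PC CD8 T cells none of 10 activators, 6 enzymes, 7 other integrins and 6 ligands tested was called. Fyb and St3gal4 were picked after their values were seen.

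Across the 30 class sums of at least 20 cells, the genes most like each of the 10 were found by Pearson's r of log2(CPM + 1), a description over sums that share libraries and free RNA. Vcam1 varied most like Mmp14, Axl and Sparc (r of 0.91, 0.91 and 0.90), Icam1 like Fth1, Ninj1 and Acod1 (0.92, 0.84 and 0.83), Itgam like Ccr1, Dok3 and Csf2ra (0.87, 0.86 and 0.86), and Selplg like Hcst, Mirt1 and Ptprc (0.84, 0.84 and 0.79). Among the 10 themselves the closest pair was Itgam and Itgb2, at 0.71, the subunits of Mac-1, and the most opposed was Vcam1 and Selplg, at -0.77. Itga4 and Itgb1, the subunits of VLA-4, stood at -0.12.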

How the data were processed

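Mouse cells were captured with barcoded beads in microwell arrays. The authors aligned reads to GRCm38 with STAR, dropped multi-aligned reads and reads with barcode bases under a quality of 10, and deposited tables of raw counts, UMIs for every gene in every barcode, without normalization, each holding 10000 barcodes. The GENCODE release is not given in the sources used here.

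Barcodes under 500 UMIs were left out. Classes of the others came from marker gates of 16 lists (at least 2 UMIs, or 1 UMI of Csf3r for neutrophils, and every other class at most the class's own UMIs divided by 3), which refuse mixed cells, and no doublet caller was run. In classes of at least 20 cells, few lay at the cut, and the largest count was 59 of 1311 T cells in kidney TIL. In kidney PC 14 of 288 T cells and 3 of 58 macrophages did, which are larger shares. Counts were summed per class and library as CPM. Where neutrophil RNA was subtracted, results below 0 were set at 0. A ratio needed 20 cells a library and 10 UMIs, a pseudocount of 1 CPM was used, and calls needed 2-fold and a 95% counting interval apart from 0. Shares were thinned to 500 UMIs with seed 0. With 1 library per condition there is no test. Clusters came from Leiden (resolution 1.5, 2000 variable genes, 30 components, 20 neighbours) on each library without the 10 genes and the adhesion list. A cluster was named where at least 3 markers were in 10% of cells and its mean log2 fold was at least 1 and 0.4 above the second class, and clusters with at least 2 platelet genes (Ppbp, Pf4, Gng11) or precursor genes (Elane, Prtn3, Mpo, Ctsg) among the top 10 stayed unnamed, as did any but neutrophil clusters with 2 of Ngp, Camp and Ltf there. These naming rules were set after the clusters were seen. A gate without Retnlg was looked at and not used.

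The 10 genes, the markers, the adhesion list and the alternatives were chosen with earlier results of these data known. All 10 genes are named. From the adhesion list, genes called the same way in TIL of all organs with a shared class are named, apart from an item that is not reported here, nor is its sublist, and for likeness the 3 genes with the highest r among those with at least 100 UMIs, class markers left out. The call rule was tested on simulated data. Positions are from GENCODE M21 and promoters from RefSeq. Python 3.11.15, numpy 2.4.6, scipy 1.17.1, pandas 2.3.3, scanpy 1.11.5, leidenalg 0.10.2, igraph 0.11.9 and matplotlib 3.10.9 were used.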

Additional observations from a re-analysis of the deposited data

How the results depend on the processing

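In TIL over PBMC, 4 of 35 gene and class pairs were called higher and 7 lower. Of all tested genes, 3.03% to 8.73% were called higher in these comparisons and 0.513% to 7.99% lower. The higher count was 0 of 7 when no UMI of another class was allowed, 0 of 24 with at least 1000 UMIs, 2 after thinning to 500 UMIs and 2 with a pseudocount of 10 CPM, and 12 of 84 with classes from clusters. It was 9 of 46 when each cell with a Csf3r UMI was taken as a neutrophil, an alternative chosen after seeing the data. The lower count was 3 of 7 with no UMI of another class and 20 of 84 by clusters. By clusters, 6.28% to 29.1% of all tested genes were called higher in the TIL comparisons and 3.71% to 12.7% lower. Shares of all genes under the other alternatives are not given, so their counts cannot be set against all genes. The remaining alternatives (3 marker UMIs, scaling without abundant genes, exchange of the TIL labels between heart and liver, and neutrophil RNA subtracted, the last chosen after seeing the data) left both counts within 1.5 times. Fewer pairs could be read under the stricter gate and the higher floor, and the cause of the other shifts was not tested. The log2 ratio of Icam1 in liver PC monocytes over PBMC turned to -0.77 with no UMI of another class, and no other called ratio of the gated classes changed sign. In clusters of labelled liver TIL, exchange turned the ratio of Itga4 in neutrophils from -1.09 (-1.72 to -0.54) to 1.09 (0.46 to 1.74), of Itgal in neutrophils, monocytes and NK cells to 0.14 (-0.37 to 0.62), 0.05 (-0.59 to 0.72) and 0.27 (-1.04 to 1.66), and of Itga4 and Icam1 in NK cells to 0.61 (-2.17 to 4.10) and -0.16 (-1.09 to 0.78). The other side of the exchange was labelled heart TIL over liver PBMC. Its neutrophil clusters gave -1.72 (-2.65 to -0.95) for Itga4 and -1.11 (-1.67 to -0.61) for Itgal. Its NK clusters gave -1.38 (-2.28 to -0.54) for Itgal, -1.02 (-2.37 to 0.24) for Itga4 and 1.74 (0.19 to 3.78) for Icam1. No paired analysis was possible because the labels give no replicate numbers and each condition has 1 library, so no replicate could be left out either. Few cells and UMIs limit the ratios over liver PBMC, with 63 gated CD8 T cells.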
